A study of Mus musculus with 2 samples.

Results

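Of the 2202 microRNA genes counted in the gastrocnemius, a calf muscle, of mice, 7 are known mainly from glia and neurons: Mir338, Mir3065, Mir219a-1, Mir219a-2, Mir138-1, Mir138-2 and Mir137. They were chosen by name, as a readout of the nerve that runs within the muscle, and with earlier results on these libraries known, so their levels and the differences between libraries are given as a description with no test. The tissue came from female B6CASTF1/J mice, hybrids of the strains C57BL/6J and CAST/EiJ, aged 2 months. Small RNA of under 30 nt was sequenced in 2 libraries of 1 group, called biological replicates 1 and 2, and no treatment, mutation or second condition is part of the study. Each library carries its own animal number but a donor code that both share, so how far the spread between them is that between animals is not certain. Of the reads listed, 20.7% in replicate 1 and 15.9% in replicate 2 fell on a microRNA gene in its own direction (own-strand counts), giving 1950204 and 2291821 counts. Levels are given as CPM, counts scaled to this total, in which 1 count was worth 0.513 CPM in replicate 1 and 0.436 CPM in replicate 2.

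MicroRNAs are cut from hairpin precursors to strands of about the same length, and bases 2 to 8 of the mature strand, the seed, pair with target messages. miR-338 and miR-219 are known from oligodendrocytes, the myelin-forming glia of the brain and spinal cord, where in mice they push precursors to mature. Within muscle, myelin is made by Schwann cells along the motor and sensory axons, while the bodies of those neurons lie outside the muscle. miR-138 and miR-137 are known from neurons. In rat neurons miR-138 limits the size of dendritic spines, and in mouse miR-137 acts on the differentiation of neural stem cells. Libraries of small RNA hold no messenger RNA, so the defining messages of Schwann cells and neurons were not measured here, and the label of a nerve readout rests on what these microRNAs are known for.

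The mature strands are shown because their seeds separate the members into families and because the strand shared by gene copies decides which reads could be counted. The sequences come from RefSeq on the GRCm38.p6 build, where all 7 members matched by symbol, and are given 5′ to 3′ with the seed in capitals.
miR-338-3p: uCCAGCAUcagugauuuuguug
miR-338-5p: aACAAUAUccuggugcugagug
miR-3065-5p: uCAACAAAaucacugaugcugg
miR-219a-5p: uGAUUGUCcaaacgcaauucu
miR-219a-1-3p: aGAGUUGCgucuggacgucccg
miR-138-5p: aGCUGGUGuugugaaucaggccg
miR-138-1-3p: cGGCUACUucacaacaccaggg
miR-138-2-3p: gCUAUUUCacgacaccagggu
miR-137-3p: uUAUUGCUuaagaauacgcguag
miR-137-5p: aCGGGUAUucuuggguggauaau

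The 10 strands have 10 different seeds, and none of these seeds occurs in another of the 1679 mature microRNAs listed in that table. miR-219a-5p is made from both Mir219a-1 and Mir219a-2, and miR-138-5p from both Mir138-1 and Mir138-2.

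The second copies matter for what could be counted, since reads with more than 1 alignment were counted for no gene. The hairpins of the copies are shown with the stretch that both hold in capitals.
Mir138-1: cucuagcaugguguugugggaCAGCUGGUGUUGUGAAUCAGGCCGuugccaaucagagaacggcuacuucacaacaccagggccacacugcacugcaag
Mir138-2: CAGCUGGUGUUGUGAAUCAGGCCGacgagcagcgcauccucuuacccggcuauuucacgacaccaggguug
Mir219a-1: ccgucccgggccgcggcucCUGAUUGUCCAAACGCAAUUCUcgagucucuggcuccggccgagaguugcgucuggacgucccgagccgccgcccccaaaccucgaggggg
Mir219a-2: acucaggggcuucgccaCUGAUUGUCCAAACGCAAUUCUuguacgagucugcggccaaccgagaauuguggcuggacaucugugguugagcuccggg

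The shared stretch is 24 nt in the Mir138 copies and 22 nt in the Mir219a copies, and in each it spans the whole 5p strand. A read that lies inside it has the same letters at both loci. The counts of these 4 genes can therefore come only from reads that reach past the stretch or from the 3p arm, and reads that could not be placed are missing from them. In Mir338, Mir3065 and Mir137, no window of 18 nt occurs in another microRNA gene outside their own locus. The rest of the genome was not searched, so reads of these genes could also be missing.

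In the mm10 assembly, Mir338 (ENSMUSG00000065600.1) is a minus-strand gene of chromosome 11, from 120014765 to 120014862, in an intron of Aatk, a kinase gene transcribed in the nervous system. Mir3065 (ENSMUSG00000105524.1) lies on the plus strand of the same locus, from 120014767 to 120014853, and its 87 bases are all within Mir338. Mir137 (ENSMUSG00000065569.2) lies on the plus strand of chromosome 3, from 118433857 to 118433929, in an exon of the noncoding gene Gm26871. Mir138-1 (ENSMUSG00000065414.1) lies on the plus strand of chromosome 9, from 122682876 to 122682974, in an exon of the transcribed pseudogene Gm47135. Mir138-2 (ENSMUSG00000065512.3) lies on the plus strand of chromosome 8, from 94324311 to 94324381, in an exon of C78859, a long noncoding gene. Mir219a-1 (ENSMUSG00000065555.1) is on chromosome 17, minus strand, from 34024983 to 34025092, where part of it overlaps an exon of Gm26940, also long and noncoding. Mir219a-2 (ENSMUSG00000065485.1) is on chromosome 2, minus strand, from 29845631 to 29845727, in no annotated gene of that strand. Mir219c and Mir219b lie opposite to Mir219a-1 and Mir219a-2.

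Mir338 carried most of the reads counted for the members. Reads inside the shared stretches of the Mir138 and Mir219a genes are missing, so its share is not one of the mature microRNAs. The 7 genes together held 6515 counts in replicate 1 and 2112 counts in replicate 2, which is 0.334% (95% exact Clopper-Pearson interval 0.326 to 0.342) and 0.0922% (0.0883 to 0.0962) of the own-strand counts. Mir338 made up 91.9% of them in replicate 1 (91.2 to 92.6) and 92.8% in replicate 2 (91.6 to 93.8), so its share within the members was alike in both libraries although their sum was not. Fewer Schwann cells or axons and less of these RNAs per cell cannot be told apart in libraries of whole muscle. Of the 7 members, 4 were detected, meaning 10 or more counts in both libraries, beside a background of 12.6% of all 2202 genes. Counting error of reads is all that the intervals include. Reads copied by PCR do not each stand for a molecule, so the intervals may be too narrow for counts of molecules.

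**Figure D1:**
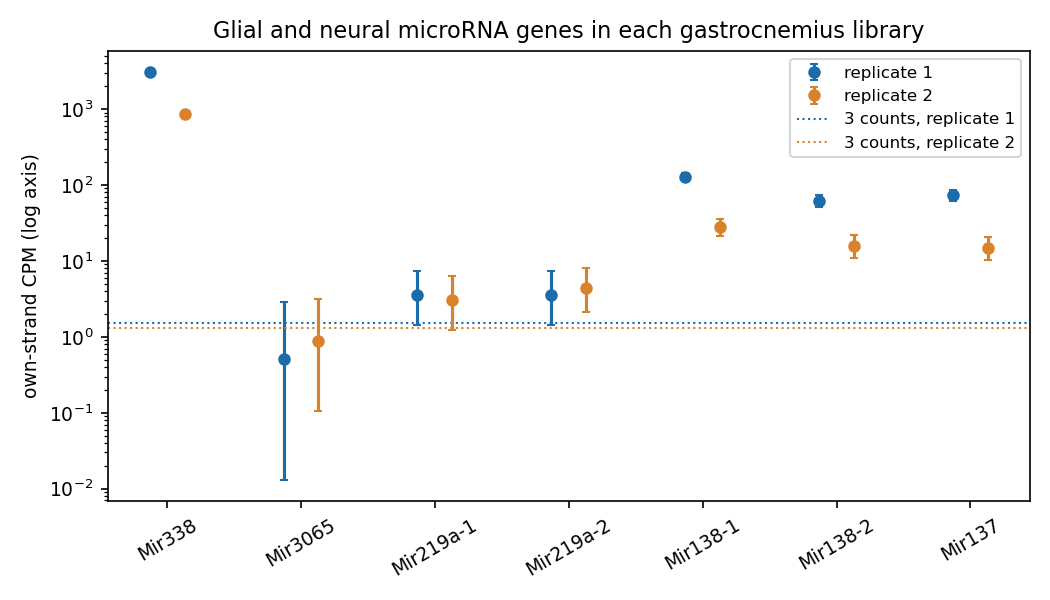
Own-strand level of each member in CPM on a log axis, with replicate 1 in blue left of replicate 2 in orange, exact 95% counting intervals as bars and dotted lines at the level of 3 counts. Mir338 stands highest at 3071 CPM in replicate 1 and 855 CPM in replicate 2, and Mir3065 lies below both dotted lines.

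Among the glial members, Mir338 had 5989 counts in replicate 1 and 1959 counts in replicate 2. These are 3071 CPM and 855 CPM, a mean of 1963 ± 1567 CPM (SD, n = 2), the 45th highest of the 278 detected genes. The SD is wide because replicate 1 was 3.59-fold above replicate 2 (exact binomial 95% interval for counting error 3.41 to 3.78). Nearest to it in mean log2 CPM over the 2 libraries were Mir361, Mir379, Mir196a-2, Mir93 and Mir214. None of these 5 differed between libraries as Mir338 did, with ratios of replicate 1 to replicate 2 from 0.742 for Mir196a-2 to 1.23 for Mir93.

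Mir3065, on the opposite strand of the same locus, was at the limit of counting. It had 1 count in replicate 1 and 2 counts in replicate 2, below the 3 counts that serve as a floor. miR-3065-5p and miR-338-3p are cut from facing strands, and 21 of the 22 bases of each are complementary to the other. The hairpin of Mir338 is shown with miR-338-3p in capitals, all but the first of which face miR-3065-5p.
Mir338: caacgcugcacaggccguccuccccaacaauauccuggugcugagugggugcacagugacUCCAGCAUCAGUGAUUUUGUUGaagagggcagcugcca

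A read from this stretch can only be given to a gene by its strand. Without strand, both genes are listed at 0 counts in both libraries, where a read that lies over both genes is ambiguous. With strand, the opposite-strand column of Mir3065 held 5989 and 1959 reads, the same numbers as the own-strand column of Mir338, and the opposite-strand column of Mir338 held 1 and 2 reads. Per read of Mir3065 there were thus 5989 reads of Mir338 in replicate 1 (exact 95% interval 1075 to 236592) and 979.5 in replicate 2 (271 to 8094). The intervals overlap, and the counts of Mir3065 are too low to tell whether the libraries differ in this ratio.

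**Figure D2:**
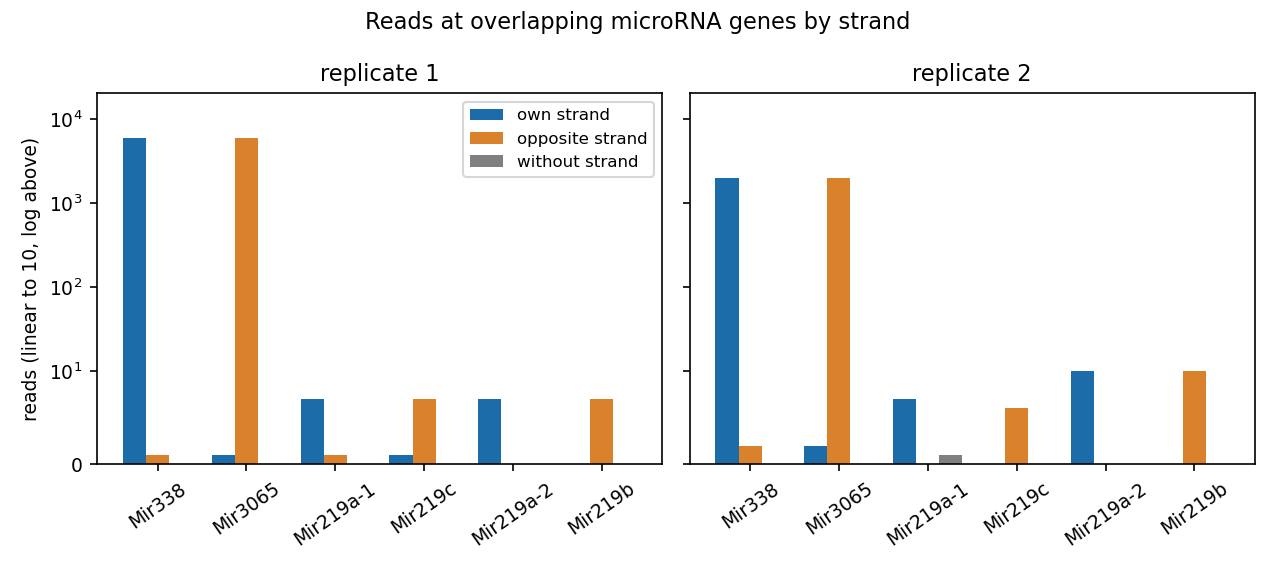
Reads at 3 pairs of microRNA genes on opposite strands, by own strand, opposite strand and without strand, in replicate 1 (left panel) and replicate 2 (right panel). The vertical axis counts reads, linear to 10 and logarithmic above. The own-strand bar of Mir338 (5989 and 1959 reads) equals the opposite-strand bar of Mir3065, and no bar without strand exceeds 1 read.

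The glial partner of miR-338 in the brain was close to the floor. Mir219a-1 had 7 counts in each library, 3.59 CPM in replicate 1 and 3.05 CPM in replicate 2. Mir219a-2 had 7 counts in replicate 1 and 10 counts in replicate 2, 3.59 and 4.36 CPM. Together they held 14 and 17 counts, and the ratio of replicate 1 to replicate 2 was 0.968 (exact interval 0.442 to 2.09). Mir219c had 1 count in replicate 1 and 0 in replicate 2, and Mir219b had 0 in both. Per read of the Mir219a pair there were 428 reads of Mir338 in replicate 1 (255 to 783) and 115 in replicate 2 (71.8 to 198). These intervals do not overlap, so the 3.59-fold difference of Mir338 was not matched by the Mir219a genes within counting error. Because miR-219a-5p has the same letters at both loci, its full level was not measured here, and the low counts do not show that it is absent.

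Among the neural members, Mir138-1 had 247 counts in replicate 1 and 64 counts in replicate 2, which is 127 CPM and 27.9 CPM. Mir138-2 had 121 and 36 counts, 62.0 CPM and 15.7 CPM. Both copies were higher in replicate 1, and for both the counting intervals of the CPM values did not overlap between libraries. The ratio of Mir138-1 to Mir138-2 was 2.04 in replicate 1 (exact interval 1.64 to 2.56) and 1.78 in replicate 2 (1.16 to 2.75). Mir138-1 was thus above Mir138-2 in both libraries by more than counting error, and the ratio did not differ between them beyond it. Since miR-138-5p could not be placed, this ratio compares only reads that tell the loci apart and not the amount of miR-138 made by each.

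Mir137 had 143 counts in replicate 1 and 34 counts in replicate 2, which is 73.3 CPM and 14.8 CPM. It is the neural member that shares no window with another microRNA gene. The ratio of Mir138-1 to Mir137 was 1.73 in replicate 1 (exact interval 1.40 to 2.14) and 1.88 in replicate 2 (1.22 to 2.94), so Mir138-1 was the higher in both. The ratio of Mir137 to Mir138-2 was 1.18 in replicate 1 and 0.944 in replicate 2, and both intervals included 1, so the order of this pair was not settled.

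By mean level the order was Mir338, Mir138-1, Mir137, Mir138-2, Mir219a-2, Mir219a-1 and Mir3065. It holds for reads that could be placed, and reads inside the shared stretches of the Mir138 and Mir219a genes are missing from it. The means of the neural members were 77.3 ± 69.8, 44.1 ± 41.4 and 38.9 ± 32.8 CPM (SD, n = 2 each), so against the spread between libraries Mir138-1, Mir137 and Mir138-2 did not stand apart, although within each library Mir138-1 was the highest of them. Mir219a-2 and Mir219a-1, at 3.98 ± 0.547 and 3.32 ± 0.378 CPM (SD, n = 2 each), were not told apart by counting error either. The mature strands are of 21 to 23 nt, so no scaling for length was applied in this order. Differences between strands in how well they are captured in a small RNA library were not measured.

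The 4 members with enough counts were all higher in replicate 1, by 3.59-fold to 4.94-fold. The ratio of replicate 1 to replicate 2 was 4.94 for Mir137 (exact interval 3.38 to 7.41), 4.54 for Mir138-1 (3.43 to 6.07), 3.95 for Mir138-2 (2.70 to 5.90) and 3.59 for Mir338. Each of these intervals overlaps the others, which does not show that the ratios were equal. The 4 genes lie on 4 chromosomes. Among all 278 detected genes, 28 were at least 2-fold higher in replicate 1, a background of 10.1%, and 8 were at least 2-fold lower in replicate 1, 2.88%. All 4 detected members were among the 28, but Mir338 and Mir137 were known to differ in this way when the members were chosen. Nothing is therefore read from that count, or from the median and ranks that follow. The median log2 ratio of the 4 was 2.08, beside 0.06 for all detected genes. With all listed reads as the denominator the split of all genes was 54 higher and 4 lower, and with DESeq2 size factors 21 higher and 12 lower.

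By size of the ratio, the 4 members ranked 6, 7, 10 and 11 of the 278 detected genes. The 5 genes above them, named after their values were seen, were Mir182, Mir183, Mir122, Mir31 and Mir708, with ratios from 12.2 for Mir182 to 6.08 for Mir708. Nearest to Mir338 in log2 ratio over the 2 libraries were Mir199b, Mir138-2, Mir92b, Mir20b and Mir350. Their ratios of replicate 1 to replicate 2 ran from 3.06 for Mir350 to 4.17 for Mir20b. With 1 ratio per gene, this likeness rests on a single comparison of libraries.

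**Figure D3:**
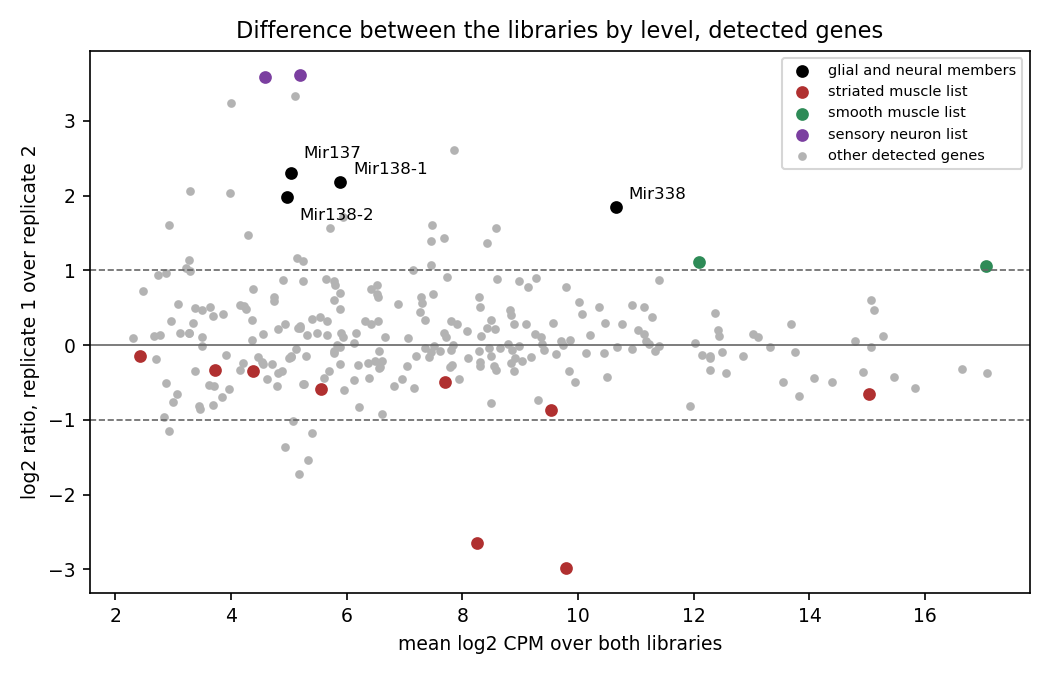
Log2 ratio of replicate 1 to replicate 2 against mean log2 CPM for the 278 detected genes, with dashed lines at 2-fold. The 4 detected members (black) lie between 1.85 and 2.31 on the log2 scale, the detected sensory neuron genes (purple) above them, and every detected striated muscle gene (red) below 0, of which 3 would lie above 0 with all listed reads as the denominator.

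The proportions of Mir338 to the neural members differed less between the libraries than the proportion of Mir338 to the Mir219a genes. Per read of Mir137 there were 41.9 reads of Mir338 in replicate 1 (exact interval 35.5 to 49.8) and 57.6 in replicate 2 (41.1 to 83.4). Per read of Mir138-1 there were 24.2 reads of Mir338 in replicate 1 (21.3 to 27.6) and 30.6 in replicate 2 (23.9 to 39.9). Both pairs of intervals overlap, but overlap does not show that the proportions were equal, which was not tested. In both, Mir338 was the lower in replicate 1 relative to the neural member. These ratios per read need no scaling between libraries. In CPM, the neural members in sum were 4.48-fold higher in replicate 1 (exact interval 3.70 to 5.46), beside 3.59-fold for Mir338 (3.41 to 3.78).

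Measured against genes of other cells, the size of the difference depended on which was used. Per 1000 reads of Mir206, a microRNA of skeletal muscle fibres, there were 115 reads of Mir338 in replicate 1 and 20.4 in replicate 2, a 5.64-fold difference. Per 1000 reads of the endothelial Mir126a there were 25.4 in replicate 1 and 5.45 in replicate 2, 4.66-fold. Per 1000 reads of Mir143, a microRNA of the smooth muscle of vessel walls, there were 15.7 in replicate 1 and 9.06 in replicate 2, 1.73-fold. Mir338 was higher in replicate 1 against each of the 3 genes, and the choice of these 3 was made with the counts in view.

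Other genes known from neurons did not follow the members in their sum, most of which came from Mir128-1 and Mir128-2. Mir128-1 and Mir128-2 had ratios of replicate 1 to replicate 2 of 0.603 and 0.528, beside 0.600 for the sum of the striated muscle list. Whether their reads came from nerve or from other cells was not tested. The neuronal list of 18 genes summed to 931 CPM in replicate 1 and 1240 CPM in replicate 2, a ratio of 0.751. It was led by Mir128-1, with 493 CPM in replicate 1 and 817 CPM in replicate 2, and by Mir132, with 264 CPM and 217 CPM. Of its 4 detected genes 1 was higher and 3 were lower in replicate 1, beside a background of 54% higher among all detected genes, and none passed 2-fold. With all listed reads as the denominator, 2 were higher and 2 lower, and the ratio of the sums was 0.977. Its 8 genes with counts below the minimum in at least 1 library were all higher in replicate 1, beside 57.7% of the 305 undetected genes with counts. In 4 of the 8 the exact interval of the ratio lay above 1, beside 5.9% of the 305. These were Mir129-1, Mir129-2, Mir7b and Mir384, named after their values were seen, with ratios of 6.07 (interval 2.50 to 17.8), 10.6 (1.47 to 464), 4.11 (1.29 to 17.2) and 3.53 (1.22 to 12.4). Their counts ran from 9 to 31 in replicate 1 and from 1 to 6 in replicate 2. Mir124a-1, Mir124a-2, Mir124a-3, Mir9-1, Mir9-2 and Mir9-3, all from the neuronal list, had 0 counts in both libraries. Each of these 6 shares a stretch of at least 26 nt with another microRNA gene, so reads inside it could not be placed, and 0 counts say little of their level. Of the 18 genes, 6 share no window of 18 nt with another microRNA gene, namely Mir132, Mir212, Mir384, Mir7b, Mir488 and Mir153, named for that property. Mir132 was detected, with 515 counts in replicate 1 and 497 counts in replicate 2, and the other 5 had 1 to 15 counts in replicate 1 and 1 to 9 in replicate 2.

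The lists for the neurons whose axons reach the muscle gave different pictures. In the motor neuron list, Mir218-2 was at 13 counts in replicate 1 and 8 in replicate 2, Mir218-1 at 1 and 4. Together they held 14 and 12 counts, a ratio of 1.37 (exact interval 0.589 to 3.24), although both also share a stretch of 22 nt. The sensory neuron list, the Mir183 cluster, was higher in replicate 1 in all 3 genes. It summed to 224 CPM in replicate 1 and 19.6 CPM in replicate 2, an 11.4-fold difference (8.38 to 15.9) whose interval lies above that of Mir338. Mir182, Mir183 and Mir96 reached 249, 164 and 24 counts in replicate 1, against 24, 16 and 5 counts in replicate 2. Whether these reads came from sensory axons or from other cells was not tested. The epithelial list, for example, was also higher in replicate 1, with a ratio of 2.06.

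Genes known from Schwann cells after nerve injury were abundant, and all 4 are also made by other cells. The highest was Mir140, at 4195 CPM in replicate 1 and 4133 CPM in replicate 2, a ratio of 1.02. Mir34a, Mir221 and Mir222 had ratios of replicate 1 to replicate 2 of 1.26, 1.87 and 1.74. None of the 4 passed 2-fold, Mir140 was lower in replicate 1 with TMM or DESeq2 scaling, and the list as a whole summed to 5562 CPM in replicate 1 and 4975 CPM in replicate 2.

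Markers of other cells differed between the libraries as well. Among all detected genes 54% were higher and 46% lower in replicate 1, the background for the counts of direction given here. All 9 detected genes of the 10 in the striated muscle list were lower in replicate 1, or 6 of 9 with all listed reads as the denominator. The list summed to 27946 CPM in replicate 1 and 46569 CPM in replicate 2, a sum made up mostly of Mir206, whose ratio was 0.637. Reads with more than 1 alignment are missing from this sum and from those of the other lists, so the sums do not rank the cell types. At least 2-fold lower in replicate 1 were 2 of the 9, Mir499 with a ratio of 0.126 and Mir208b, named after its values were seen, with 0.160. No gene of that list was at 0. The smooth muscle list summed to 202582 CPM in replicate 1 and 97335 CPM in replicate 2, with both detected genes, Mir143 and Mir145a, at least 2-fold higher in replicate 1, although the ratio of the sums was 1.87 with DESeq2 size factors. The epithelial list was higher in replicate 1 in all 7 of its genes, 338 CPM in replicate 1 and 164 CPM in replicate 2, with Mir203 and Mir200c leading and Mir200a, Mir200b and Mir141, named for this, at 0 in replicate 2. The leukocyte list summed to 3677 CPM in replicate 1 and 2745 CPM in replicate 2, led by Mir155 and Mir150, whose ratios were 0.926 and 1.00. In it 4 of 5 genes were higher in replicate 1, or 3 of 5 with TMM or DESeq2 scaling and 5 of 5 with all listed reads. Mir223 and Mir142, named after their values were seen, passed 2-fold with ratios of 2.96 and 2.58. The fibroblast list, led by Mir21a and Mir214, summed to 43516 CPM in replicate 1 and 31836 CPM in replicate 2, with 3 of 4 detected genes higher in replicate 1, or 4 of 4 with all listed reads. The red cell genes Mir451a and Mir144 were both higher in replicate 1, at 787 and 460 CPM in sum. The endothelial gene Mir126a was lower in replicate 1, at 120880 CPM against 156853 CPM in replicate 2, but not with all listed reads as the denominator (ratio 1.00), and Mir126b was at 0 in both. The part of these differences in the ratios of the members was not tested.

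**Figure D4:**
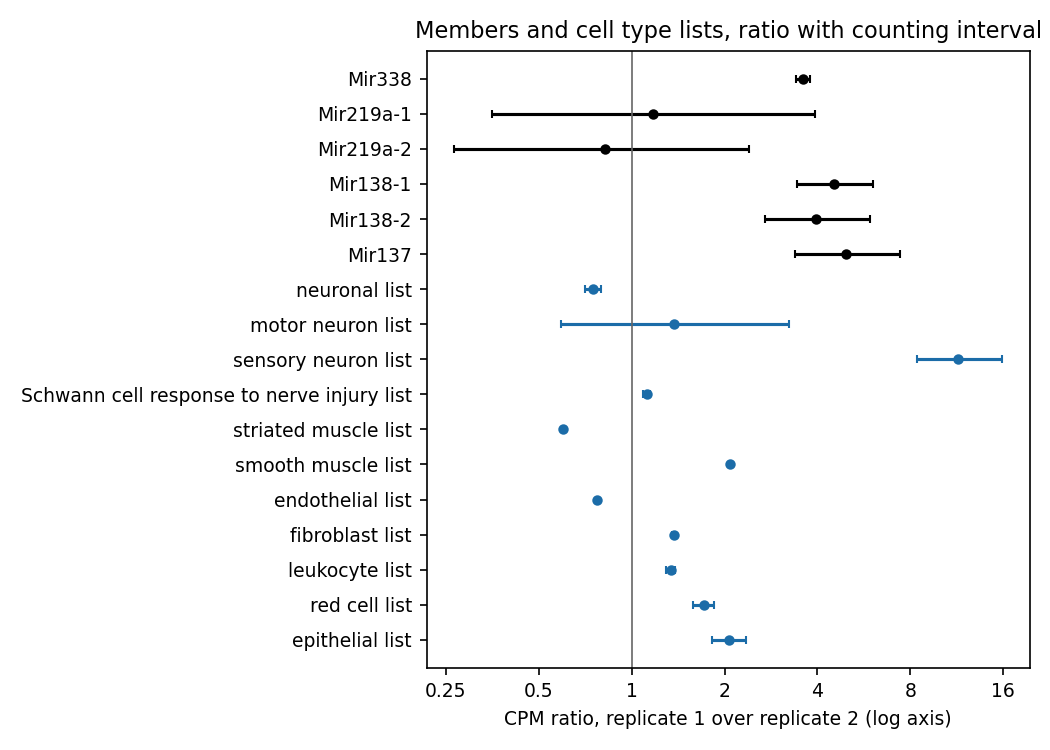
CPM ratio of replicate 1 to replicate 2 on a log axis for 6 members (black) and for the summed counts of each cell type list (blue), with exact 95% counting intervals. Mir338, Mir138-1, Mir138-2 and Mir137 lie between 3.59 and 4.94, both Mir219a genes span 1, and of the lists only that of sensory neurons lies above 4.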

How the data were processed

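The deposited values are the authors' raw read counts per microRNA gene of GENCODE mouse release M21 on mm10, per the labels and the notes deposited with each library, given for either strand, the own strand and the opposite strand. Which aligner and counter were run is not given in the sources used here. Rows that hold reads of no gene were dropped from totals: in replicate 1 and replicate 2 they were 7.48% and 9.83% (unmapped), 70.1% and 72.3% (several alignments) and 1.73% and 1.90% (outside genes) of the reads listed. All 2202 identifiers matched the annotation. Counts of the libraries differ by more than sampling noise (chi-square 271 per degree of freedom), so they are not copies of the same library. This does not show that they come from separate animals, which rests on the labels.

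CPM used the own-strand total of each library, so 3 counts equal 1.54 CPM in replicate 1 and 1.31 CPM in replicate 2. A gene was detected at 10 or more own-strand counts in each library. Shares have exact Clopper-Pearson 95% intervals, and ratios have exact conditional binomial 95% intervals. With 1 library on each side of a ratio, no p-value is given. TMM factors came from edgeR 4.0.16 and size factors from DESeq2 1.42.0 (R 4.3.3). Intervals were computed with scipy 1.17.1, tables with pandas 2.3.3 and numpy 2.4.6, and figures with matplotlib 3.10.9, all under Python 3.11.15. Shared windows of 18 nt were searched on both strands of all microRNA genes, and not in the rest of the genome. The ratio intervals were tested on data simulated with counting error alone. That test says nothing of PCR copies or of spread between animals.

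The members, gene lists and comparisons were chosen with earlier results of these data known. The named genes are every member, every gene overlapping one, the 5 detected genes nearest to Mir338 in mean log2 CPM and in log2 ratio, and up to 2 leading genes of each list. Genes named beyond this rule were chosen after their values were seen: those with the largest ratios, those past a limit or at 0 within a list, the neuronal genes with no shared window, and the further genes of the sensory neuron and Schwann cell injury lists. Mir142hg was not found among the microRNA genes.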

Additional observations from a re-analysis of the deposited data

Results flagged for a closer look

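A large signal lies outside the gene counts on which the levels rest. Reads with more than 1 alignment were 70.07% of the reads in replicate 1 and 72.33% of those in replicate 2. How many of them came from the Mir138 and Mir219a genes, or from the other members, was not tested.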

How the results depend on the processing

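Mir338, Mir138-1, Mir138-2 and Mir137 were higher in replicate 1 under every scaling tried. The ratio for Mir338, 3.59 as reported, was 3.48 with TMM, 3.23 with DESeq2 size factors, 4.67 over all reads listed and 3.82 without the 10 most abundant genes. Against Mir206, Mir143 and Mir126a, denominators chosen after seeing the data, it was 5.64, 1.73 and 4.66. On unstranded counts Mir338 and Mir3065 gave no ratio, since both were at 0. The scalings shifted the median log2 ratio of all detected genes by −0.15 (DESeq2) and 0.38 (all reads listed). The members' mean share of 0.213% was 0.0420% over all reads listed, 0.658% without the 10 most abundant genes, 0.0214% on unstranded counts and 0.0168% without Mir338, a choice made after seeing the data. It was 0.0922% without replicate 1 and 0.334% without replicate 2. The reads of Mir338 per read of Mir3065, 2422 as a geometric mean, ran from 979.5 without replicate 1 to 5989 without replicate 2. Of the 7 members, 6 were detected at 3 counts (341 of all 2202 genes), 4 at 30 counts (231), 5 at 10 counts in either library (309) and 3 on unstranded counts (254). The 28 genes at least 2-fold higher in replicate 1 became 54 over all reads listed, 45 at 3 counts, 18 at 30 counts, 141 with no filter and 9 at 4-fold. The 8 genes at least 2-fold lower became 4 over all reads listed, 98 with no filter and 2 at 4-fold. No paired analysis was possible because there is 1 group. Mir3065 and both Mir219a genes had 1 to 10 counts a library, so their ratios have wide intervals.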
